A study of Mus musculus with 49 samples.

Results

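FxD and FxE are the stages of B cell development sorted straight from the bone marrow of normal Balb/c mice, on either side of the appearance of IgM at the cell surface. The 6 arrays titled FxD (3) and FxE (3) were taken by title from the 49 samples of the series; arrays whose title adds a treatment to FxE were left out. FxD cells were B220+CD43-IgM- pre-B cells and FxE cells B220+IgM+IgD- immature B cells. Both carried no transgene and no deleted allele and had received no culture, cytokine or drug. The labels give neither age nor sex. RNA of both groups was amplified in 2 rounds before it was hybridized to Affymetrix U74Av2 arrays, which was not done for the cultured groups of the study. The methods describe independent sorts, so p-values measure the spread between sorts together with that of the amplification.

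A pre-B cell has assembled a heavy chain gene, which it first tests with a surrogate light chain in the pre-B receptor and under the pull of IL-7. After a burst of division the cell reopens the recombinase, rearranges a light chain gene and, when heavy and light chains pair, displays IgM as an immature B cell. From then on receptor signals decide whether the cell keeps that receptor, edits it or dies, and survivors take on the surface proteins of mature B cells on the way to the spleen.

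A signal is the intensity of a probe set, the group of oligonucleotides that measures 1 transcript, in units scaled by the authors to the same target on each array. Differences below are log2 of FxD minus log2 of FxE after signals under 20 were raised to 20, tested with limma and adjusted over all 9977 probe sets. A probe set was called at an adjusted p under 0.05. Of 9977 probe sets 299 were called, or 3.00%, with 174 higher and 125 lower in FxD. The median size of a called difference was 2.37 for rises and 2.27 for falls, and the smallest was 1.31 and 1.28. All 299 had FxD and FxE arrays that did not overlap, but so did the rest of the 1993 probe sets that were apart in this way. Arrays of a group correlated at 0.919 to 0.959 and arrays of different groups at 0.885 to 0.925. The median signal ran from 357.1 to 454.5, with FxD replicate 1 the highest. Each array mattered to the number of calls. With FxD replicate 1 left out 36 probe sets were called, with FxD replicate 3 left out 125 and with FxE replicate 2 left out 90. Leaving out FxD replicate 2 gave 0 calls by limma and 1484 probe sets at an unadjusted p under 0.05. The same was true of FxE replicate 1, with 0 and 1113, and of FxE replicate 3, with 0 and 1119. By the t-test and fold criteria in the study's methods, 515 probe sets passed, 234 higher and 281 lower in FxD.

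Genes of the sort markers were read first. Ptprc, the gene of B220 and CD45, gave 1253, 4171 and 2707 units in FxD arrays 1 to 3 and 9218, 7004 and 7441 in FxE arrays. Cd79a, a signal chain of the receptor, was at 5807 to 7809 in FxD and 14132 to 19627 in FxE. Neither passed the test (adjusted p = 0.159 and 0.0717), although their groups did not overlap. Ighm, the IgM heavy chain gene, was among the brightest probe sets in both groups, at 269485, 122352 and 123730 in FxD and 189349, 144570 and 171580 in FxE (log2 difference -0.07, SE 0.38). The transcript was thus bright in the cells sorted as IgM-, and the groups overlapped. Ighd was at 1001 to 1237 in FxD and 1287 to 2693 in FxE. Spn, the gene of CD43, was at 339 to 604 in FxD and 198 to 432 in FxE, and the groups overlapped.

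FxE replicate 2 stood apart. Of 13 neutrophil genes 12 had the highest of the 6 signals on that array. Camp, which encodes an antimicrobial peptide of neutrophil granules, gave 14367, 13091 and 16715 units in FxD and 22608, 82103 and 21669 in FxE. S100a8, a calcium-binding protein of the same cells, gave 12598, 7313 and 28568 in FxD and 18205, 88151 and 16749 in FxE. The summed neutrophil signal was 38204 to 79201 in FxD, 283364 on FxE replicate 2 and 69249 and 74592 on the other FxE arrays. None of the 13 was called, and their median log2 difference of -0.95 became -0.15 without FxE replicate 2. Monocyte genes summed to 5033, 3352 and 5076 in FxD and 6520, 15913 and 7748 in FxE, so that every FxE array was above every FxD array. Of the 11, 6 were highest on FxE replicate 2 and 5 had FxD below FxE without overlap, against 10.0% of all genes. By limma 0 were called, with 5 at an unadjusted p under 0.05. The median log2 difference of the 11, -0.34, became 0.02 without FxE replicate 2. Erythroid genes were bright everywhere, with sums of 67061 to 128410 in FxD and 121540 to 169446 in FxE, most of it from the alpha-globin gene Hba-a1. T cell genes summed to 1620 to 2094 and 1993 to 2679, with 6 of 10 under 200 units on every array. NK, mast and eosinophil, megakaryocyte and stromal lists each summed to 3387 units or less on any array. Genes of pro-B cells summed to 10023 to 12393 in FxD and 2450 to 3851 in FxE, genes of IgD-bearing B cells to 2812 to 4546 and 9722 to 12321, and these lists share members with those below. Jchain, a plasma cell gene, reached 3898 units on FxE replicate 1 against 207 to 827 on the 5 other arrays. What these transcripts contribute to the results that follow was not tested, and for most lists the count of members called is also given without FxE replicate 2.

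**Figure D1:**
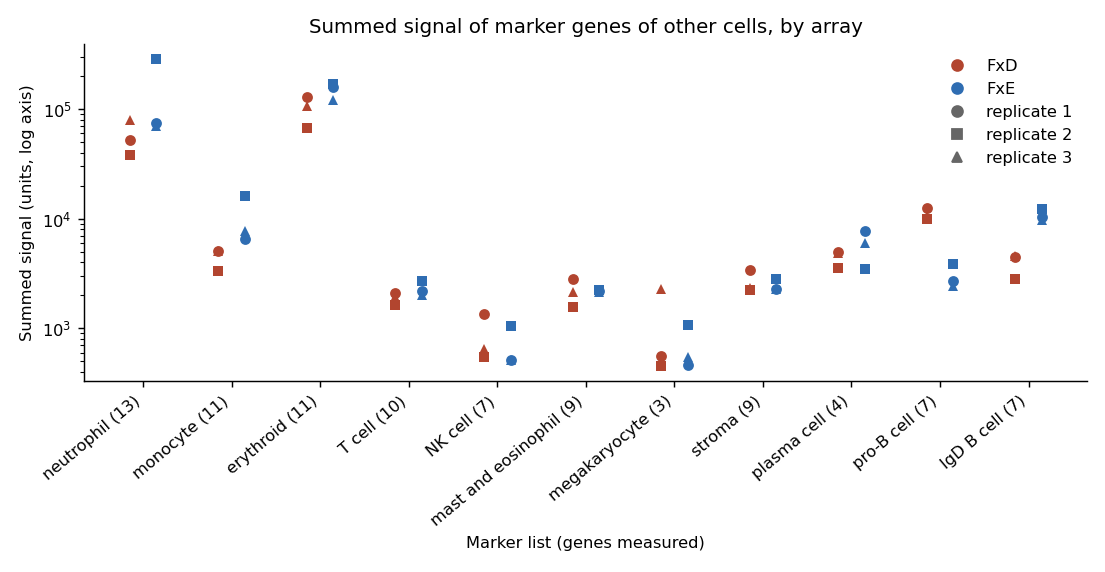
Summed signal in units, on a log axis, of the marker genes of other cell types on each FxD (red) and FxE (blue) array, with symbols for the replicate number. The neutrophil sum of FxE replicate 2, at 283364 units, lies above those of all other arrays, while T cell sums lie between 1620 and 2679.

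The recombination machinery and the surrogate light chain marked FxD. Of 8 measured genes of V(D)J recombination 3 rose in FxD and 0 fell. The median log2 difference of the 8 was 1.98. Over all 7417 genes, each shown by 1 probe set, 1.98% rose and 1.25% fell, with a median of 0.04. The same 3 rose without FxE replicate 2. Rag1, 1 of the 2 subunits of the recombinase that cuts receptor gene segments, gave 11302, 21243 and 15682 units in FxD and 355, 212 and 161 in FxE. Its mean was 66.2-fold higher in FxD (log2 difference 6.08, SE 0.40, adjusted p = 0.00993). Its partner Rag2 gave 2003, 2151 and 1995 units in FxD and 21.1, 118 and 37 in FxE (5.50, SE 0.63, adjusted p = 0.0175). Every FxD array exceeded every FxE array for both subunits. The end-joining gene Xrcc6, which encodes Ku70, followed with 12262, 12873 and 13652 units against 1497, 948 and 1330 (3.39, SE 0.26, adjusted p = 0.0107). Xrcc5, which encodes the Ku80 partner of that protein, had overlapping groups, at 438 to 458 units in FxD and 400 to 478 in FxE (0.06, SE 0.22). Dntt, which adds untemplated bases at joints, was low in both, at 303 to 594 in FxD and 52.9 to 205 in FxE (1.65, SE 0.59, adjusted p = 0.278).

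Of 4 pre-B receptor genes 2 rose, with and without FxE replicate 2, against 1.98% of all genes with all 6 arrays. Vpreb1, a part of the surrogate light chain, was at 1880, 1138 and 1667 units in FxD and 95.4, 75 and 142 in FxE (3.93, SE 0.35, adjusted p = 0.0107). Igll1, which encodes the other part, λ5, was at 8126, 6537 and 6145 in FxD and 674, 1110 and 554 in FxE (3.21, SE 0.33, adjusted p = 0.0154), and its second probe set was called too. Neither gene had overlapping groups. Vpreb3, a related protein that stays inside the cell, was at 9793, 3743 and 11762 in FxD and 3761, 3720 and 5210 in FxE, so that FxD replicate 2 lay within the FxE range. The kind of E box bound by E2A, CAGGTG or its complement CACCTG, lies in the 250 bases before the start of 3 of the 4 pre-B receptor genes and 1 of 7 recombination genes with a promoter in RefSeq. Of the 5916 measured genes with one 15.7% hold it, and 17.1% of all 27025 promoters, as letters with no claim on binding. The strands shown (GRCm38.p6) run 5′ to 3′ up to the base before the first listed start, with the E box in capitals, for the 3 genes that both rose and hold it. They lie at chr2:101649533-101649782 for Rag1, chr16:16869256-16869505 for Vpreb1 and chr16:16863986-16864235 for Igll1, all on the minus strand.
Rag1: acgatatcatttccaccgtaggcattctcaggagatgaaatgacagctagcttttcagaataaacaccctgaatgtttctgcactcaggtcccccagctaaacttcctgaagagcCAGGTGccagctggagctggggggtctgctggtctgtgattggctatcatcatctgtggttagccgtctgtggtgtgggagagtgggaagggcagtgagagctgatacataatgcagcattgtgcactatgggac
Vpreb1: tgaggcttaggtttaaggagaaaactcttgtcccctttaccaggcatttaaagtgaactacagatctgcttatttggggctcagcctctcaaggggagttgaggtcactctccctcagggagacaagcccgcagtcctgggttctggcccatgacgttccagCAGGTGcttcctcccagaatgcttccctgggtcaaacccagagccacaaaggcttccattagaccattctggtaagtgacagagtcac
Igll1: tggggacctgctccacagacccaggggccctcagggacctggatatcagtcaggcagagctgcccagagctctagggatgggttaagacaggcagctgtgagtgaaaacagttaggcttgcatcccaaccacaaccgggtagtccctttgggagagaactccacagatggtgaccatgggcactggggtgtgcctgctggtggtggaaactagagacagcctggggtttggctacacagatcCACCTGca
The match lies 130 bases before the start in Rag1, 83 in Vpreb1 and 3 in Igll1.

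Il7r, the receptor chain through which IL-7 keeps progenitors alive and dividing, was 18.5-fold higher in FxD. Signals were 11175, 17207 and 8213 in FxD and 585, 659 and 729 in FxE (4.15, SE 0.33, adjusted p = 0.0107). Among 10 genes of the IL-7 receptor pathway it rose with Socs1, an inhibitor of JAK kinases, and 0 fell. Over all genes 1.98% rose and 1.25% fell. Socs1 was at 1464, 1157 and 2035 in FxD and 421, 529 and 331 in FxE (1.85, SE 0.32, adjusted p = 0.0421). Without FxE replicate 2, 1 of the 10 was called. Prm1, a protamine gene 4 places from Socs1 in the gene order of GRCm38.p6, had the smallest adjusted p of all 9977 probe sets, with 1087, 946 and 766 units against 36.6, 42.1 and 41.1 (4.53, SE 0.24, adjusted p = 0.00944). Of 11 progenitor surface genes Enpep, which encodes the BP-1 peptidase, rose, at 1332, 3016 and 718 in FxD against 137, 125 and 92.8 in FxE (3.61, SE 0.54, adjusted p = 0.0279). The others did not pass, nor did Enpep without FxE replicate 2. Cd93, the AA4.1 antigen of immature stages, was bright in both groups, at 23732 to 30137 and 10483 to 14015 (1.17, adjusted p = 0.0736). Il2ra, the CD25 chain found on pre-B cells, was at 224 to 889 and 79.6 to 172 (1.84, adjusted p = 0.213).

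**Figure D2:**
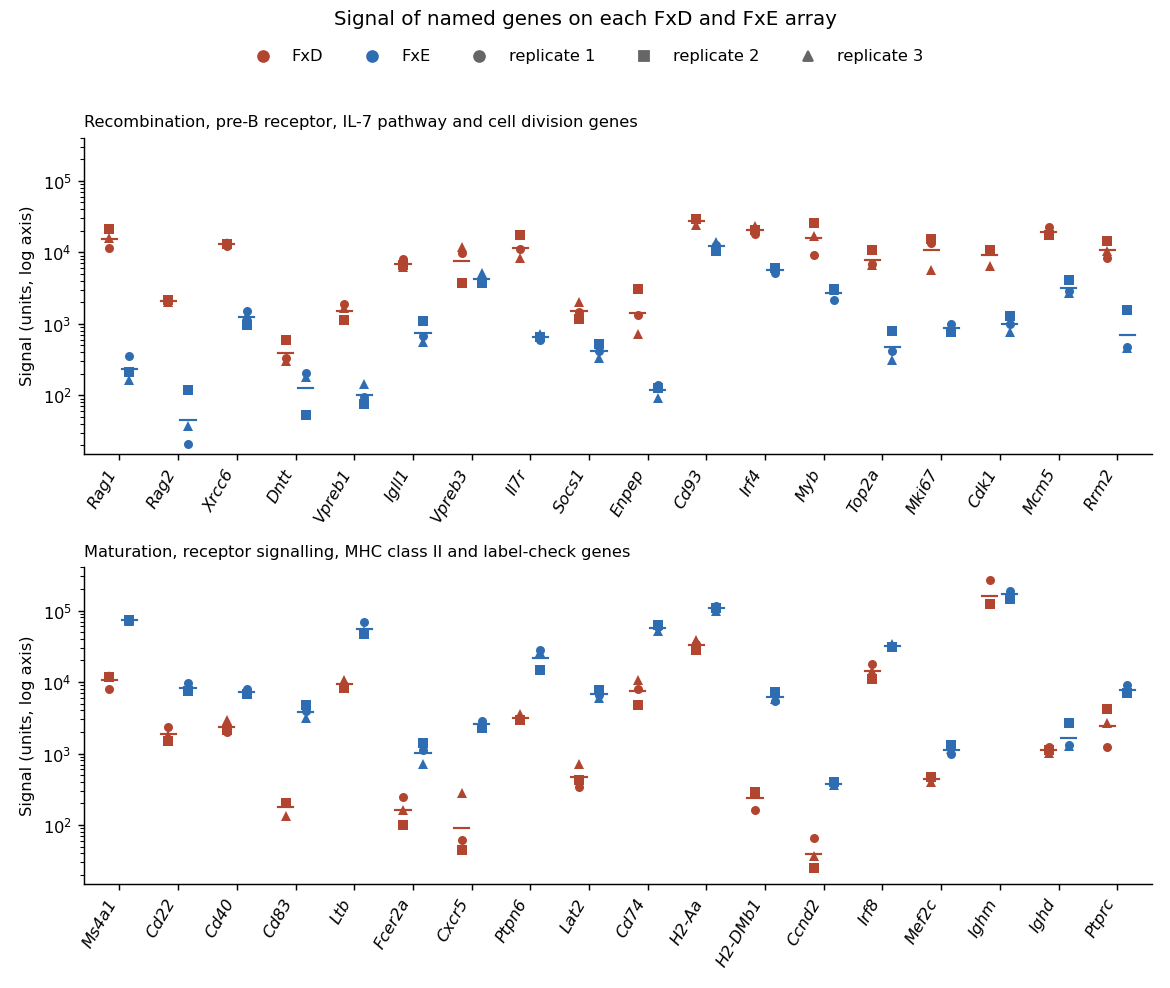
Signal in units, on a log axis, of 36 named genes on each FxD (red) and FxE (blue) array, with a symbol for each replicate and a bar at the geometric mean of 3 arrays. Rag1 lies between 11302 and 21243 units on FxD arrays and between 161 and 355 on FxE arrays, whereas Ighm lies between 122352 and 269485 on all 6.

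Cell division genes were higher in FxD. Of 74 genes in the lists for mitosis, DNA synthesis and replication origins, 47 rose and 0 fell, against 1.98% and 1.25% of all genes. In 64 of the 74 every FxD array was above every FxE array, against 11.1% of all genes. By list, 26 of 33 mitosis genes, 12 of 25 DNA synthesis genes and 9 of 16 replication origin genes rose, with medians of 2.48, 1.56 and 1.82. The counts were 12, 7 and 6 without FxE replicate 2, and the medians 2.66, 1.54 and 1.97. That array had the highest FxE signal for 47 of the 74 genes (63.5%), against 47% of all genes. In sorted populations such as these, fewer dividing cells and less RNA per dividing cell cannot be told apart.

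The mitotic kinase gene Cdk1 gave 11000, 10790 and 6378 units in FxD and 998, 1266 and 762 in FxE (3.21, SE 0.34, adjusted p = 0.0154). Mki67, the gene of the proliferation antigen Ki-67, gave 13662, 15538 and 5719 against 1008, 758 and 838 (3.63, SE 0.43, adjusted p = 0.0184). For both, FxD replicate 3 was the lowest of its group yet lay several times above every FxE array. Motors and spindle proteins were among the largest rises. Kifc1, a minus-end motor, was 20.9-fold higher and Kif4, a chromosome motor, 8.09-fold higher. Aspm, a spindle pole protein, was at 492, 1023 and 285 in FxD and 17.6, 24.9 and 24.3 in FxE, so close to the floor of 20 that no fold is given. Cdkn3, a phosphatase that acts on cyclin-dependent kinases, was at 4606, 4443 and 4283 in FxD and 108, 638 and 105 in FxE (4.52, SE 0.72, adjusted p = 0.0322), with FxE replicate 2 the highest of its group. Bub1, a spindle checkpoint kinase, had 1 probe set that was called (3.80) and a brighter one that was not (4.03, SE 0.80, adjusted p = 0.065).

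Many genes for copying DNA rose too. Top2a, the topoisomerase that untangles replicated chromosomes, gave 6786, 10726 and 6577 units in FxD and 421, 788 and 309 in FxE (4.06, SE 0.42, adjusted p = 0.0154). Rrm2, a subunit of the enzyme that makes deoxynucleotides, gave 8391, 14561 and 10514 against 469, 1575 and 454 (3.97, SE 0.55, adjusted p = 0.0234). Prim1, a primase subunit, was 14-fold higher, and the clamp-associated factor Pclaf 12.4-fold. A second, dimmer probe set of Pclaf was 2.33-fold higher, apart but not called (1.54, adjusted p = 0.409). Of the licensing helicase, Mcm5 was at 22805, 17447 and 18252 in FxD and 2864, 4110 and 2658 in FxE (2.62, SE 0.28, adjusted p = 0.0154). Mcm7 was 7.81-fold and its loading factor Cdc6 9.21-fold higher. Not every member lay this way, as 1 of 25 DNA synthesis genes and 3 of 16 replication origin genes had differences below 0, among them the helicase subunit Mcm6 (-0.75, not called), singled out after its value was seen. In FxE the division genes that rose were at varied levels, with Mcm5 at 2658 to 4110 and Aspm, near the floor, at 17.6 to 24.9.

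Motifs known from cell cycle promoters were looked for in the same 250 bases. A CCAAT box, CCAAT or ATTGG, was in 23 of 28 mitosis genes with a promoter in RefSeq (82.1%), 9 of 14 replication origin genes (64.3%) and 13 of 24 DNA synthesis genes (54.2%), against 36% of measured genes and 34.5% of all promoters. The CHR letters, TTTGAA or TTCAAA, were in 10 of 28 mitosis genes (35.7%), 2 of 14 replication origin genes (14.3%) and 3 of 24 DNA synthesis genes (12.5%), against 11.7% and 16.3%. An E2F site, searched as TTTCCCGC, TTTGGCGC or TTTCGCGC on either strand, was in 5 of 14 replication origin genes (35.7%), 1 of 28 mitosis genes (3.57%) and 1 of 24 DNA synthesis genes (4.17%), against 2.79% and 1.59%. An EBF-type palindrome, CCCNNGGG, and the octamer ATGCAAAT, searched as well, were in 4 and 0 of 28 mitosis genes, against 15.4% and 1.57% of measured genes. Matches to different motifs may overlap. Shown for these roles are the promoters of Mcm7 (chr5:138171884-138172133, minus strand, E2F site in capitals) and Kif4 (chrX:100625815-100626064, plus strand, CCAAT boxes in capitals).
Mcm7: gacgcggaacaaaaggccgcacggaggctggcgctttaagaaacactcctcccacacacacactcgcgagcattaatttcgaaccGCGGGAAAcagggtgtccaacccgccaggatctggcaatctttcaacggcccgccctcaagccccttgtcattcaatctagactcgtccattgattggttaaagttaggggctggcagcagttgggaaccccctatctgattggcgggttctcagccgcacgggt
Kif4: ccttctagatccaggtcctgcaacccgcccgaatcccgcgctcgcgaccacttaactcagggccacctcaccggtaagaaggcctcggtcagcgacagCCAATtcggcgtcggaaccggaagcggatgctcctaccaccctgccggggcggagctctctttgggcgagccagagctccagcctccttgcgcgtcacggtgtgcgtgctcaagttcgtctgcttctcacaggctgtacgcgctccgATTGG

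Few growth and survival genes outside the division lists were called. Over all genes 1.98% rose and 1.25% fell. Of 22 G1 control genes 1 rose and 1 fell. Ccnd2, the D-type cyclin of the receptor response, fell in FxD, at 66.6, 25 and 36.6 units against 379, 401 and 360 in FxE (-3.27, SE 0.39, adjusted p = 0.0184). Cdkn1c, which encodes the inhibitor p57, rose, at 505, 293 and 483 against 111, 41.6 and 71.3 (2.59, SE 0.44, adjusted p = 0.0381). Myc was at 10.3 to 61.8 in FxD and 125 to 342 in FxE and did not pass (-2.93, SE 0.59, adjusted p = 0.0677). Of 10 Bcl2 family genes Bcl2l1, which encodes the survival protein Bcl-xL, rose, with 6811, 6234 and 11519 units against 992, 2024 and 1333 (2.50, SE 0.39, adjusted p = 0.0295). Mcl1, another survival gene, was at 3503 to 8115 in FxD and 13382 to 21306 in FxE and did not pass (-1.70, adjusted p = 0.0896). The 3 probe sets of Bcl2 disagreed. The brightest had overlapping groups (-0.49, SE 0.36), another was not called and the dimmest, at 37.6 to 122 units in FxD and 523 to 597 in FxE, was called lower (-3.02). Without FxE replicate 2 no member of the G1 or Bcl2 lists was called. Brca1 was the 1 gene called among 18 DNA repair genes (2.11, adjusted p = 0.0308). In 8 of the 18 every FxD array was above every FxE array, against 11.1% of all genes, and in 3 below, against 10.0%. The median of the 18 was 0.63, with 8 at an unadjusted p under 0.05. Traf6, a signal adaptor, was the 1 called among 15 NF-kB genes (1.38, adjusted p = 0.0444). Its other probe sets, at 0.58 and 1.72, had overlapping groups and were not called. Neither Brca1 nor Traf6 passed without FxE replicate 2. Of 12 FoxO targets Il7r alone was called, with and without that array, and of 8 plasma cell genes 0 were, with 2 at an unadjusted p under 0.05. Lists for nucleotide synthesis, cholesterol synthesis, glycolysis, ribosome biogenesis, the cytosolic ribosome, the proteasome and the respiratory chain held 183 genes and 0 calls by limma, with 15 genes at an unadjusted p under 0.05 and medians from -0.15 to 0.48. Without FxE replicate 2, 1 glycolysis gene was called.

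**Figure D3:**
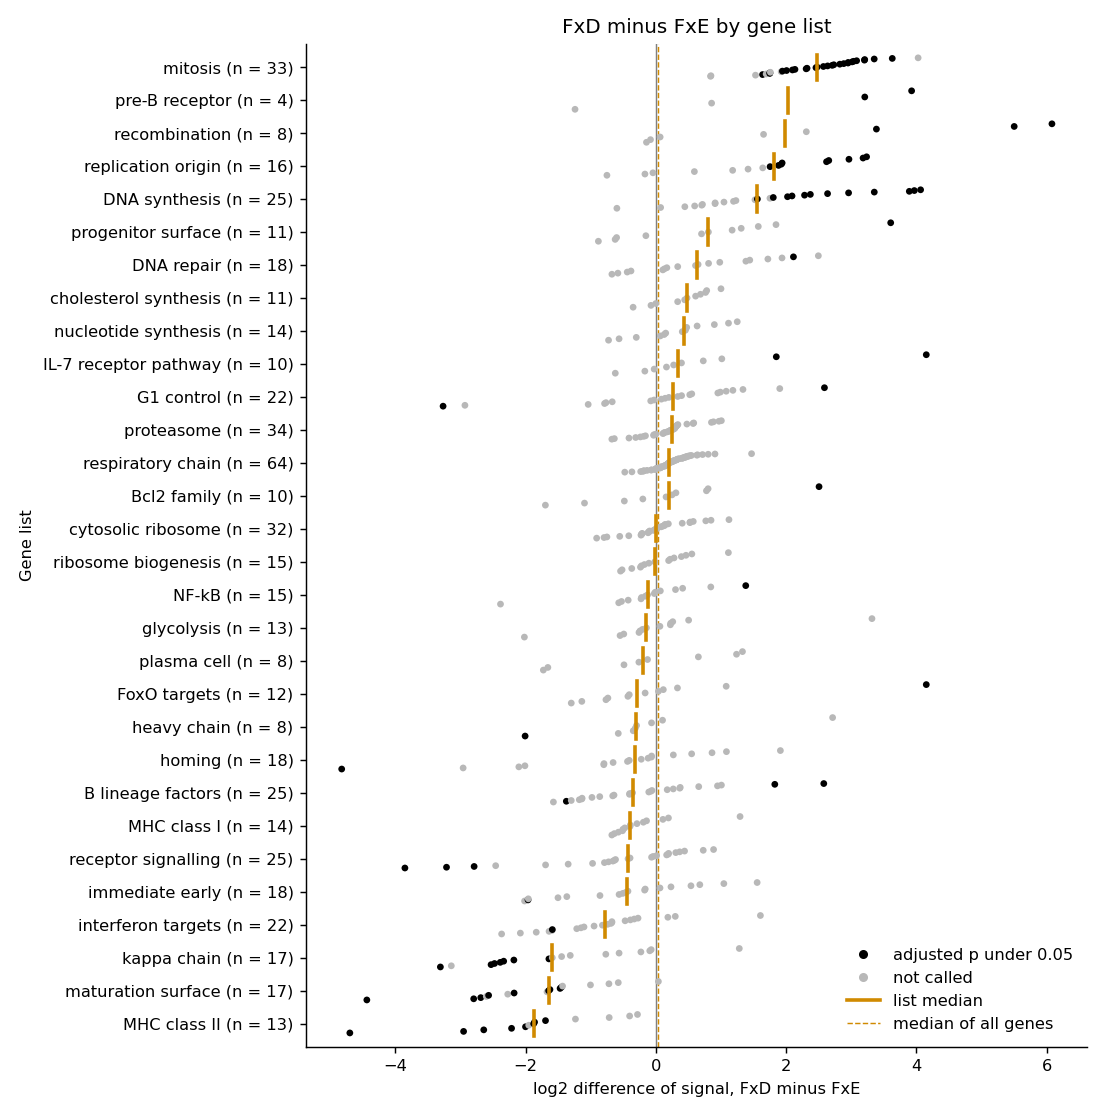
Log2 difference of signal, FxD minus FxE, of each gene in 30 lists ordered by median, with called genes in black, other genes in gray and list medians as orange bars. Mitosis lies furthest right with a median of 2.48 and MHC class II furthest left with -1.88, while the cytosolic ribosome is centered at 0.01.

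Transcripts of surface proteins of maturing B cells were lower in FxD. Of 17 measured 9 fell in FxD, against 1.25% of all genes, and 0 rose, with a median of -1.65. In 16 every FxD array was below every FxE array, against 10.0% of all genes. With FxE replicate 2 left out, 3 were called and the median was -1.69. Ms4a1, the CD20 gene, was at 8084, 11877 and 12265 units in FxD and 75244, 74338 and 70958 in FxE (-2.80, SE 0.26, adjusted p = 0.0116), and its second probe set fell further (-3.85). Cd83, an activation and maturation marker, was 21.6-fold lower in FxD, at 208, 202 and 135 against 3896, 4729 and 3135 (-4.44, SE 0.30, adjusted p = 0.00993), while its second, dim probe set had overlapping groups. Ltb, which encodes lymphotoxin beta, was at 9224, 8357 and 10567 against 69148, 47592 and 51836 (-2.57, SE 0.26, adjusted p = 0.0145). The inhibitory lectin Cd22, the costimulatory receptor Cd40 and the IgE receptor Fcer2a, or CD23, fell, with differences of -2.18, -1.65 and -2.69. Cd22 and Cd40 signals were thus substantial in FxD, at 1481 to 2369 and 2026 to 2901, whereas those of Cd83 and Fcer2a stayed at or under 208 and 250.3. The E box letters were in 6 of 11 promoters of this list (54.5%), against 15.7% of measured genes.

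Among 18 homing and adhesion genes Cxcr5, the receptor that draws B cells to follicles, fell and 0 rose. Its signals were 61.1, 45.1 and 276 in FxD and 2883, 2241 and 2687 in FxE (-4.83, SE 0.69, adjusted p = 0.0237). Cxcr4, which retains progenitors in marrow, was at 1443, 3646 and 4403 against 666, 1052 and 622, apart but not called (1.91, SE 0.49, adjusted p = 0.128). Cxcr5 was not called without FxE replicate 2. Over all genes 1.25% fell and 1.98% rose with all 6 arrays.

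Of 25 receptor signalling genes 3 fell and 0 rose, the same number without FxE replicate 2, with a median of -0.43. Over all genes 1.25% fell and 1.98% rose. Ptpn6 encodes SHP-1, a phosphatase that restrains receptor signals. It was at 3026, 2957 and 3525 in FxD and 27979, 14488 and 25875 in FxE (-2.79, SE 0.32, adjusted p = 0.0175). Lat2, an adaptor, was at 340, 428 and 708 against 6574, 7833 and 6052 (-3.86, SE 0.34, adjusted p = 0.0107). Sh3bp5, which binds and inhibits the kinase Btk, was at 21.9 to 35.9 against 184 to 349 (-3.22, SE 0.35, adjusted p = 0.0164). Of 18 immediate early genes Ier2 fell, with 1637, 1610 and 1406 units against 6075, 7580 and 4780 (-1.96, adjusted p = 0.0216). No immediate early gene was called without FxE replicate 2. Egr1, induced by receptor signals, was at 453 to 986 and 1839 to 4810 without passing (-2.02, adjusted p = 0.103), and Jun lay the other way, at 674 to 914 in FxD and 195 to 342 in FxE (1.55, adjusted p = 0.0581).

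MHC class II genes, with which B cells present antigen to T cells, were lower in FxD. Of 13 measured 8 fell, against 1.25% of all genes, and all 13 had differences below 0. In 11 every FxD array was below every FxE array, against 10.0% of all genes, and the median was -1.88. Only 1 was called without FxE replicate 2, with a median of -1.94. H2-DMb1, a subunit of the peptide exchange factor H2-M, was 25.4-fold lower, at 162, 294 and 276 in FxD against 5376, 7333 and 5857 in FxE (-4.70, SE 0.32, adjusted p = 0.00993). The invariant chain gene Cd74 gave 8002, 4813 and 10537 against 59323, 61828 and 51507 (-2.95, SE 0.34, adjusted p = 0.0175). The antigen-presenting chain H2-Aa was bright in both, at 33858, 27775 and 38691 against 114610, 108844 and 99236 (-1.70, SE 0.24, adjusted p = 0.0237). H2-Aa was thus 3.22-fold lower in FxD, while H2-DMb1 was under the median signal of every FxD array. MHC class I genes had 0 of 14 called by limma and a median of -0.40, with 1 at an unadjusted p under 0.05. Of the 14, 11 had differences below 0. In 5 every FxD array was below every FxE array, against 10.0% of all genes, and in 1 every FxD array was above. A CCAAT box forms the Y box of class II promoters. It was in 7 of 9 class II genes with a promoter in RefSeq (77.8%), against 36% of measured genes. It is shown in capitals for H2-DMb1 (chr17:34152941-34153190, plus strand), the gene of the list with the largest fall.
H2-DMb1: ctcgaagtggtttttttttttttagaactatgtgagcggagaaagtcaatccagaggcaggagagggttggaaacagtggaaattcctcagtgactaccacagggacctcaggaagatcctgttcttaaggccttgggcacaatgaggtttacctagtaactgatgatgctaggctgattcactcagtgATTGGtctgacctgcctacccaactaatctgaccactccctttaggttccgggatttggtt

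Of 22 interferon targets 1 fell, Irf9, a subunit of the factor that carries interferon signals, at 4871, 4561 and 5930 units in FxD and 13883, 16490 and 15741 in FxE (-1.59, SE 0.24, adjusted p = 0.0267). The list had a median of -0.78, and in 12 genes every FxD array was below every FxE array, against 10.0% of all genes. Of all genes 1.25% fell. Irf9 did not pass without FxE replicate 2.

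Kappa light chain probe sets fell in FxD, and few heavy chain probe sets were called. Of 36 kappa probe sets, those that match several genes included, 13 fell in FxD and 0 rose, with a median of -1.45. Over all 9977 probe sets 125 fell and 174 rose. Of 38 heavy chain probe sets 1 fell and 0 rose, with a median of 0.04. Igkv6-14, a variable segment, was at 1188, 1183 and 1858 units in FxD and 17118, 9086 and 16401 in FxE (-3.31, SE 0.36, adjusted p = 0.0166). Igkv4-70 was at 2291, 1908 and 1954 against 13197, 9125 and 10241 (-2.39, SE 0.25, adjusted p = 0.0154). These 2 segments were 10.1-fold and 5.29-fold lower in FxD on these probe sets. A second, dim probe set of Igkv6-14 had overlapping groups, at 70.7 to 458 in FxD and 112 to 248 in FxE (-0.43, adjusted p = 0.886). The brightest kappa probe set, which matches the constant region and several segments, did not follow, at 220028, 111625 and 87397 against 147969, 147709 and 123172 (-0.11, SE 0.39, adjusted p = 0.948). The heavy chain segment that fell was Ighv14-2 (-2.01, SE 0.34, adjusted p = 0.0375). Of its 2 other probe sets, both also apart, neither passed. Many of these probe sets share sequence with related segments, so the value of a single segment is uncertain. With FxE replicate 2 left out, 5 of the 36 kappa and 1 of the 38 heavy chain probe sets were called, all lower in FxD.

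**Figure D4:**
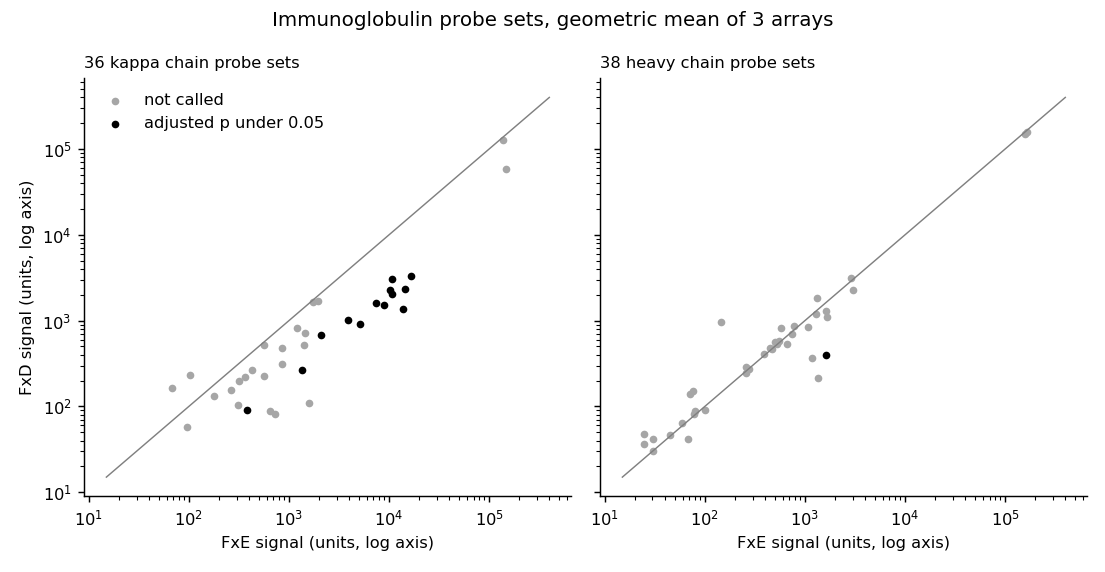
Signal in FxD against FxE, both in units on log axes, of 36 kappa and 38 heavy chain probe sets, each point the geometric mean of 3 arrays, with called probe sets in black and the diagonal marking equal signal. Most kappa probe sets lie below the diagonal, 13 of them called, and heavy chain probe sets lie along it, with 1 called.

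Of 25 transcription factors of the B lineage 2 rose and 1 fell, against 1.98% and 1.25% of all genes. Irf4, which promotes light chain rearrangement, was at 17863, 20312 and 23142 units in FxD and 5184, 6098 and 5970 in FxE (1.83, SE 0.23, adjusted p = 0.0191). Myb, a factor of dividing progenitors, was at 9131, 25996 and 16981 against 2123, 3018 and 2958 (2.58, SE 0.43, adjusted p = 0.0365). Mef2c, a target of receptor signals, fell, at 451, 472 and 394 against 972, 1314 and 1151 (-1.38, SE 0.24, adjusted p = 0.0421). Its 3 other probe sets had differences of -2.19 to -2.45 and did not pass. The lineage factors Pax5 and Ebf1 had overlapping groups, at 5782 to 15188 against 7290 to 17114 and 1063 to 1486 against 912 to 1064. A second, dimmer probe set of Pax5 was apart, at 138 to 449 in FxD and 51.9 to 89.7 in FxE, and did not pass (1.71, adjusted p = 0.19). Irf8 was apart in the other direction from Irf4, at 11103 to 17602 in FxD and 30891 to 33600 in FxE, and did not pass (-1.18, adjusted p = 0.0852). Without FxE replicate 2 no factor of the list was called.

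Large falls outside the lists were in genes of varied roles. Ephx1, an epoxide hydrolase, was at 226, 121 and 508 units in FxD and 5446, 5546 and 5695 in FxE (-4.53, adjusted p = 0.0175). Sorl1, a sorting receptor, Il18, a cytokine, Cfp, the complement factor properdin, and Gja1, a gap junction protein, fell, with differences of -3.84, -3.58, -3.32 and -3.90. Slco5a1, a member of the organic anion transporter family, Pkib, an inhibitor of protein kinase A, and Mfhas1 fell as well (-4.14, -3.91 and -3.44). The transcript A530040E14Rik was 11.9-fold lower. Among rises outside the lists was Syce2, a protein of the meiotic synaptonemal complex, at 534, 346 and 484 against 49.5, 25.2 and 31.1 (3.72, SE 0.35, adjusted p = 0.0116).

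The difference between these fresh stages was then set beside those between cultured cells, each tested as a difference of differences in 1 limma fit of 5 groups. That fit takes 1 spread per probe set from amplified and unamplified arrays together. In it FxD minus FxE was called higher for 482 probe sets and lower for 455, against 174 and 125 in the fit of 6 arrays. The p-values of these comparisons thus rest partly on the spread of the cultured groups. B6 Mneg cells (3 arrays) were IgM- cells of C57BL/6 marrow grown in IL-7. Ctrl Mhi cells (4) were IgM-high cells carrying the B1-8 heavy chain and the 3-83κ light chain, grown in IL-7 and then in interferon αβ without IL-7. Cre Mlo cells (4) were the same with an Mx-Cre transgene, which interferon switches on, sorted for low IgM after loss of the heavy chain. Strain, receptor, culture, interferon and RNA amplification differ between fresh and cultured cells and cannot be told apart, and both comparisons use the Ctrl Mhi arrays.

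Of 33 mitosis genes limma called 30 larger and 0 smaller in FxD minus FxE than in Cre Mlo minus Ctrl Mhi. Over all genes these shares were 3.06% and 1.50%. The mitosis median was 2.48 in fresh cells and -0.76 after receptor loss in culture. In the same comparison 18 of 25 DNA synthesis genes and 11 of 16 replication origin genes were called above 0 and 0 below. With FxE replicate 2 left out these counts were 29, 17 and 11. Against B6 Mneg minus Ctrl Mhi, whose mitosis median was 0.90, 8 of 33 mitosis genes were called above 0 and 0 below. Over all genes these shares were 2.00% and 1.89%. Without FxE replicate 2, 7 mitosis genes were called above 0. DNA synthesis medians were 1.56 fresh and 1.59 in that culture pair, and 1 of 25 genes was called. MHC class II medians were -1.88, -1.84 and -1.80 in the fresh, B6 Mneg and Cre Mlo pairs, with 1 of 13 genes called in each test.

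Kappa chain genes had a median of -1.59 in fresh cells and 0.03 between Cre Mlo and Ctrl Mhi, with 9 of 17 called below 0 and 2 above. Interferon targets were lower in B6 Mneg than in Ctrl Mhi cells (median -2.03) by more than in FxD than in FxE (-0.78), with 9 of 22 called above 0 and 1 below. Of 15 ribosome biogenesis genes 5 were called below 0 in that test, with a median of 1.02 in the culture pair and -0.02 in fresh cells. Leaving out FxE replicate 2 gave 9 kappa genes below 0 and 2 above, 7 interferon targets above 0 and 1 below, and 6 ribosome biogenesis genes below 0. Counts of probe sets called in the tests were 372 against the B6 Mneg pair and 435 against the Cre Mlo pair.

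**Figure D5:**
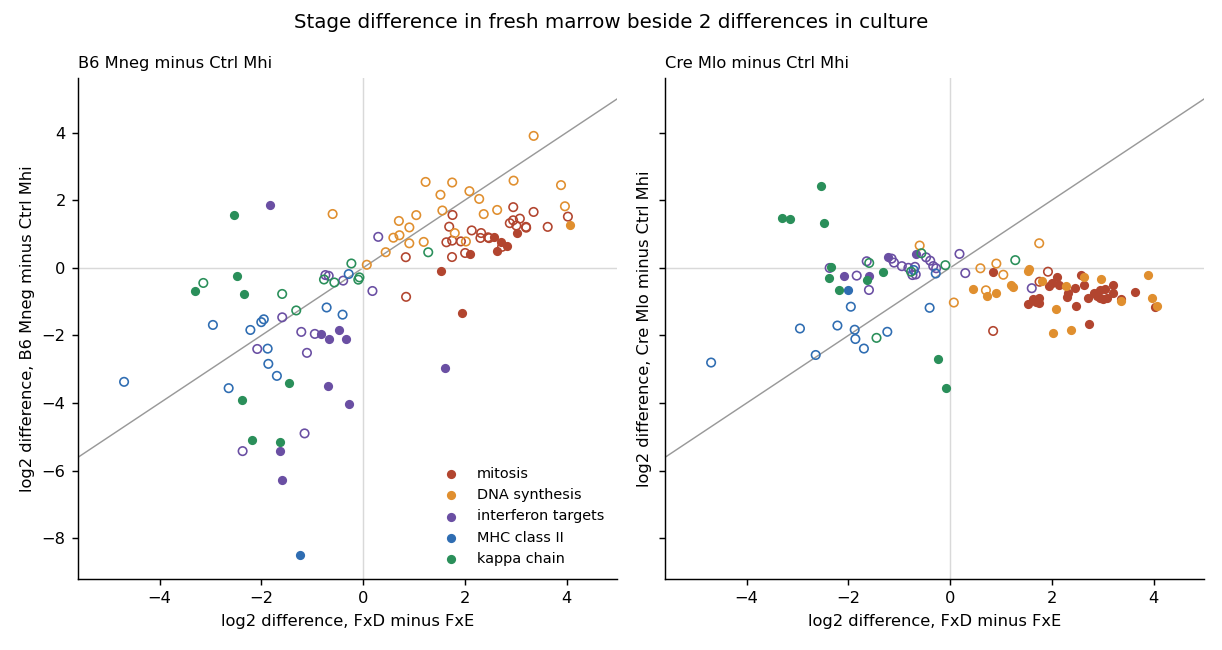
Log2 difference FxD minus FxE against B6 Mneg minus Ctrl Mhi (left) and Cre Mlo minus Ctrl Mhi (right) for the genes of 5 lists, filled where the 2 differences differ by limma, with the diagonal marking equal differences. Mitosis genes, with a fresh median of 2.48, lie near -0.76 in the right panel, and MHC class II genes lie below 0 in both.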

How the data were processed

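Hybridization intensity per probe set was calculated by the authors with Microarray Suite 5.0, scaled to 1500 units on each array and deposited on the linear scale. The table used holds 9977 probe sets and 37 arrays. Detection p-values were not used here, so signals under 20 were raised to 20 in place of the methods' rule on undetected transcripts. Log2 values of the 6 FxD and FxE arrays were fitted with limma 3.58.1 (R 4.3.3, lmFit and eBayes, two-sided) and adjusted by Benjamini and Hochberg, and the 5 groups of the last comparison in a second fit. The methods' t-test was run with unequal variances on the signals, and a probe set passed at p under 0.05 with means 2-fold or more and over 200 units apart. Probe sets match 1 gene (8724), several (346) or none (907), and a gene is shown by its probe set of highest mean log2 signal. Promoters came from RefSeq.

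Members, lists and tests were chosen with earlier results of these data known. Named genes were the 15 largest rises and falls whose groups do not overlap, up to 6 members of each list by adjusted p, 22 fixed genes, the 4 highest and lowest of each difference of differences and the 4 brightest markers of each other cell type. The text gives a part of them. The procedure was tested on simulated data. Alternatives were other floors, filters, normalizations, variance priors, a replicate block, all 37 arrays, and each array left out. Scan dates were not used here, and the number of arrays limits the precision.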

Additional observations from a re-analysis of the deposited data

Results flagged for a closer look

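Each gene here was among the 4 highest or 4 lowest differences of differences called by limma in 1 of the comparisons of fresh with cultured cells. Values are FxD minus FxE minus the cultured difference, on the log2 scale, and no cause was tested.

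Against B6 Mneg minus Ctrl Mhi, Dntt differed by -5.62 (SE 0.72, adjusted p = 0.000457) and by -5.31 on its second probe set. Its signals were 411 ± 159 in FxD, 146 ± 81.4 in FxE, 15163 ± 3125 in B6 Mneg and 110 ± 59.7 in Ctrl Mhi (SD, n = 3, 3, 3 and 4 arrays). B6 Mneg cells thus had far more signal of this joint-adding enzyme than FxD cells. Plxnd1, a plexin receptor, differed by -5.92, since it was lower in FxD than in FxE (-2.52) and higher in B6 Mneg than in Ctrl Mhi (3.40). Myl10, a myosin light chain, differed by -5.45, with 10796 ± 3666 units in B6 Mneg and 87.9 ± 48.8 in FxD.

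H2-Ea differed by 7.25, with 18480 ± 3316 units in FxD, 43261 ± 5264 in FxE, 49.4 ± 32.4 in B6 Mneg and 17287 ± 8556 in Ctrl Mhi. It is a class II chain that the C57BL/6 strain is known not to express, and fresh and B6 Mneg cells differ in strain. The protease gene Ctse differed by 6.00, with 277 ± 25.2 units in B6 Mneg and 9308 or more in the means of FxD, FxE and Ctrl Mhi. Mx1, an interferon target, differed by 4.67 (adjusted p = 0.0309), with 5135 ± 1152 in Ctrl Mhi, which had received interferon, and 68.8 ± 26.8 in B6 Mneg. Dspp differed by 5.10 at low signals, 205 ± 197 in FxD and 21.6 ± 8.09 in FxE.

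Against Cre Mlo minus Ctrl Mhi, 4 genes of the cell cycle and its chromosomes rose in FxD and were lower in Cre Mlo than in Ctrl Mhi. Cdkn3 differed by 5.93, Syce2 by 5.75, Aspm by 5.61 and Bub1 by 5.19, the last with FxD minus FxE not called by itself. For Adck1, a kinase-like gene, 2 matched probe sets differed by -4.89 and -4.18. Both were lower in FxD than in FxE and higher in Cre Mlo than in Ctrl Mhi. The kappa segments Igkv6-14 (-3.31 and 1.47), Igkv1-133 (-2.53 and 2.43), Igkv15-103 (-3.14 and 1.45) and Igkv8-19 (-2.48 and 1.32) had the same directions. Some other kappa segments did too, while others, among them Igkv4-91 (-2.18 and -0.65), did not. Whether the Adck1 probe sets measure that gene alone was not tested. Gja1 differed by -4.45 and Slco5a1 by -3.91, with Cre Mlo minus Ctrl Mhi differences of 0.55 and -0.23.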

How the results depend on the processing

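Calls between FxD and FxE rose from 299 to 508 with log2(signal + 100), 500 with a mean signal of at least 200 among 6347 probe sets and 866 with all 37 arrays in 1 fit, and 284, 272 and 274 of the 299 remained. Leaving out 1 array gave 0 to 125 calls, and 354 to 481 by the study's t-test criteria, which gave 1 after Benjamini-Hochberg adjustment. Other limma settings gave 271 to 443 calls. A floor of 100 gave 296, of which 221 were shared, and 51.7% in place of 58.2% higher. With the replicate number as a block limma called 0, with 1185 at an unadjusted p under 0.05. Deviations of same-numbered arrays correlated at -0.0317, -0.138 and -0.0395, and those of other pairs at -0.045 to 0.0848. With 3 arrays a group these values cannot exclude that the numbers pair the arrays, and the main fit used no pairing. Calls against the B6 Mneg pair ran from 287 to 519 and against the Cre Mlo pair from 335 to 607. Of 76 called genes under the naming rule, 65 stayed called with the floor of 100 and 43 without FxE replicate 2. The log2 difference between FxD and FxE of these 76 genes kept its sign under every setting in which they were fitted, and directions of other probe sets were not compared.

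With 3 arrays a group, an exact two-sided permutation test of 1 gene cannot give a p under 0.1, so calls rest on the variance shared across probe sets by limma. Of the probe sets, 2.31% to 6.36% were at or under the floor of 20 on each array, where differences are understated. The signals carry no detection measure here.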
